A study of Mus musculus with 6 samples.

Results

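A group of 10 adipogenic genes was followed in mouse embryo fibroblasts with and without chromosomal instability: the transcription factors Pparg, Cebpa, Cebpb, Cebpd and Klf4, and the effector genes Fabp4, Lpl, Adipoq, Cd36 and Plin2. The 10 genes were read from every probe set that the array annotation assigns to exactly 1 gene symbol among them, which gave 19 probe sets of 20380 with 1 symbol, for 10 of 12393 genes. Expression was measured in 6 fibroblast lines with 1 array each, and each line had been grown for 2 passages in the same medium with serum and without a treatment that differed between lines. The 3 unstable lines were 2 lines homozygous for a hypomorphic BubR1 allele (BubR1 H/H, pairs 9515 and 9938) and 1 line homozygous for the AAA allele of CDC20 (CDC20 AAA/AAA, pair 10074), which the labels also class as hypomorphic. The 3 stable lines were BubR1 +/+ in pairs 9515 and 9938 and CDC20 +/+ in pair 10074, and a pair is an unstable and a stable line that share a number in their titles. BubR1 and CDC20 both act in the mitotic checkpoint that delays chromosome separation until every chromosome is attached. The CDC20 genotype rests on a single line, and whether the lines derive from separate embryos is not in the labels. The p-values therefore measure only how far these 6 lines spread, which may be partly technical.

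Adipocyte differentiation runs as a cascade of transcription factors. Cebpb and Cebpd are induced early by hormonal signals and activate Pparg, a nuclear receptor for fatty acid ligands, and Cebpa, and these last factors then keep each other expressed and switch on genes of lipid uptake and storage. Embryo fibroblasts can enter this programme when given an adipogenic cocktail, and no such cocktail is named in the labels of these lines.

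The promoters of the factors that the results turn on are shown first, because C/EBP factors and nuclear receptors are known to act through short elements near gene starts. Windows of 250 bases before a gene's start were taken from RefSeq (GRCm38.p6), where 7 of the 10 genes had 9 windows, 3 of them for Pparg, of which the first and the last are printed; Fabp4, Lpl and Cebpd had none in the table. Capitals mark matches on either strand to the C/EBP core TTNNGNAA (N is any base), the C/EBP palindrome TTGCGCAA, the nuclear receptor element AGGTCA, the E-box CACGTG, the GC box CCGCCC and the TATA box TATAAA, and no other base is in capitals. Each sequence is given 5′ to 3′ on the strand of its gene.
Pparg, chr6:115360894-115361143, plus strand: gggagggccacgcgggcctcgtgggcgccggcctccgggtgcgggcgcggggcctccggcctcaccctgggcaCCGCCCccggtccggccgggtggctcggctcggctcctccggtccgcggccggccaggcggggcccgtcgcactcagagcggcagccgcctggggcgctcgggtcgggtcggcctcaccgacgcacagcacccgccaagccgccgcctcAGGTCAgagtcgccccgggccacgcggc
Pparg, start further downstream, chr6:115421816-115422065, plus strand: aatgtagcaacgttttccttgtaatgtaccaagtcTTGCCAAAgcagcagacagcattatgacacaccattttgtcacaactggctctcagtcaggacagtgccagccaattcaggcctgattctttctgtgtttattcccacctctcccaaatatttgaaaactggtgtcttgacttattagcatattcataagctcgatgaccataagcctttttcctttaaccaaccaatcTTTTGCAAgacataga
Cebpa, chr7:35119043-35119292, plus strand: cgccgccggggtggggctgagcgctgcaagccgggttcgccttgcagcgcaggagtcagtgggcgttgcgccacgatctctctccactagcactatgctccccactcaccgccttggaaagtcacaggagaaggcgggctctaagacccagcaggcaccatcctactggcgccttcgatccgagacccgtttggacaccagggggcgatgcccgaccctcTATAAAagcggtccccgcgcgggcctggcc
Klf4, chr4:55532476-55532725, minus strand: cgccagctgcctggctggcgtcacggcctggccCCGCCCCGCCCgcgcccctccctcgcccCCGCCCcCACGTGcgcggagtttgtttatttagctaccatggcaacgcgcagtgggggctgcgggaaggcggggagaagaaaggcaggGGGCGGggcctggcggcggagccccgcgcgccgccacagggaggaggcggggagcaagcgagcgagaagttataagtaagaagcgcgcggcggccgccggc

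The upstream Pparg window holds AGGTCA beginning 28 bases before the start, and the downstream one holds the C/EBP core as TTTTGCAA beginning 16 bases before the start and, on the opposite strand, as TTGCCAAA at 215 bases. The Pparg window between them (chr6:115362099-115362348) holds AGGTCA beginning 9 bases before its start, 2 GC boxes and, on the opposite strand, a TATA box at 29 bases. The Cebpa window holds a TATA box beginning 30 bases before its start and none of the other 5 motifs. In Klf4 the window holds the E-box and 4 GC boxes, of which the 2 furthest upstream share a base. The upstream Pparg window also holds 1 GC box, and any palindrome match would also match the core. Of 32851 promoter windows in the same table, 36.8% held the C/EBP core, 14% AGGTCA, 32.7% the GC box, 12.4% the TATA box, 6.02% the E-box and 0.164% the palindrome, which no window of these genes held. A match describes the letters and is not a binding site, and a missing match says only that these letters are not in that window.

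All values are log2 signals after GCRMA, in which background sits near 2, and a gene was tested where it reached 4 on at least 3 arrays. Levels are compared between lines for the same probe set and never between genes. The unstable minus stable difference was tested with limma over 8382 genes with Benjamini-Hochberg adjustment, first without and then with the pair as a block.

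Pparg, the nuclear receptor at the centre of the cascade (Entrez gene 19016, chromosome 6, a single probe set), was lower in the unstable line of every pair. Its log2 signal was 6.47, 5.42 and 6.32 in unstable lines 9515, 9938 and 10074, against 7.06, 6.22 and 6.95 in the stable lines of the same numbers. Unstable line 9938 was the lowest of the 6 and stable line 9515 the highest, and the groups overlap because stable line 9938 lies below unstable lines 9515 and 10074. Within pairs the unstable line was lower by 0.59, 0.79 and 0.63 log2 units, close to the same step in each. The means were 6.07 ± 0.57 in unstable and 6.74 ± 0.46 in stable lines (SD, n = 3 each), a difference of -0.67 log2 (SE 0.35), or 1.59-fold lower. By limma this gave an unadjusted p of 0.103 and an adjusted p of 0.999. With the pair as a block the SE was 0.088, the unadjusted p 0.000664 and the adjusted p 0.262, and Pparg was then 17th of 8382 genes by p without passing the threshold. Without unstable line 9938 the unblocked difference was -0.35, and over all 16 alternative settings the adjusted p ran from 0.262 to 1.0. Within the BubR1 pairs alone the difference was -0.69 (SE 0.50 without and 0.125 with the block), against -0.63 in the CDC20 pair.

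Cebpa, the partner factor that sustains Pparg and carries insulin sensitivity in fat cells (Entrez gene 12606, chromosome 7, a single probe set), was also lower in the unstable line of every pair, with unequal steps. Its log2 signal was 7.42, 8.32 and 7.50 in unstable lines 9515, 9938 and 10074, against 7.74, 8.73 and 8.59 in their stable counterparts. The groups overlap, since unstable line 9938 lies above stable line 9515. The unstable line was lower by 0.32, 0.41 and 1.08 log2 units in the pairs 9515, 9938 and 10074, so the CDC20 AAA/AAA pair had the widest gap. The means were 7.75 ± 0.50 in unstable and 8.35 ± 0.54 in stable lines (SD, n = 3 each), a difference of -0.60 (SE 0.35), 1.52-fold lower. Neither fit called it in limma, with adjusted p = 0.999 without and 0.319 with the pair block (0.319 to 1.0 over 16 alternatives). Without pair 10074, which leaves the BubR1 pairs, the difference was -0.36. The BubR1 effect minus the CDC20 effect was 0.72 (SE 0.87 without and 0.20 with the pair block) and did not pass in either limma fit.

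Klf4, a zinc finger factor that in a mouse preadipocyte line acts early by activating Cebpb, completed the group of factors lower in all 3 pairs (Entrez gene 16600, chromosome 4, 2 probe sets). The brighter probe set read 9.68, 9.44 and 9.96 log2 in unstable lines 9515, 9938 and 10074, against 9.90, 9.91 and 10.47 in stable lines of those numbers. Unstable line 10074 lay above stable lines 9515 and 9938, so the groups overlap on this probe set. The second probe set read 9.82, 9.14 and 9.77 in the unstable and 10.11, 10.07 and 10.41 in the stable lines, and there every unstable line lay below every stable one. The difference was -0.40 (SE 0.21), 1.32-fold lower, on the first probe set and -0.62 on the second. In limma the first probe set had adjusted p = 0.999, and 0.287 with the pair block (0.287 to 1.0 over 16 alternatives). Without stable line 10074 the difference was -0.21.

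Cebpb and Cebpd, the early factors of the cascade, differed between the groups by less than their standard errors, also with the pair block (SE 0.083 and 0.107). Cebpb (Entrez gene 12608, chromosome 2, 2 probe sets) read 7.25, 7.06 and 7.26 in unstable lines 9515, 9938 and 10074, against 7.22, 6.93 and 7.26 in stable lines, and its 6 values span less than any other tested factor's. The groups overlap, and the difference was 0.05 (SE 0.12, adjusted p = 0.999 by limma). Its second probe set lay below 4 on every array, between 3.26 and 3.55. Cebpd (Entrez gene 12609, chromosome 16, 2 probe sets) read 6.51, 6.11 and 6.11 in the unstable and 6.27, 6.01 and 6.26 in the stable lines, a difference of 0.07 (SE 0.15, adjusted p = 0.999 by limma), and its second probe set gave differences of -0.07, 0.26 and -0.26. Over the 5 factors the median difference was -0.40 log2, which is the Klf4 value, against a median of -0.01 over all 8382 genes. A wider list of 21 tested adipogenic factors and cofactors, described below, had a median of -0.014, so the lower values do not extend to such factors as a class. The pair medians of the 5 factors were -0.22, -0.41 and -0.51, the values of Klf4, Cebpa and Klf4 in pairs 9515, 9938 and 10074.

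**Figure D1:**
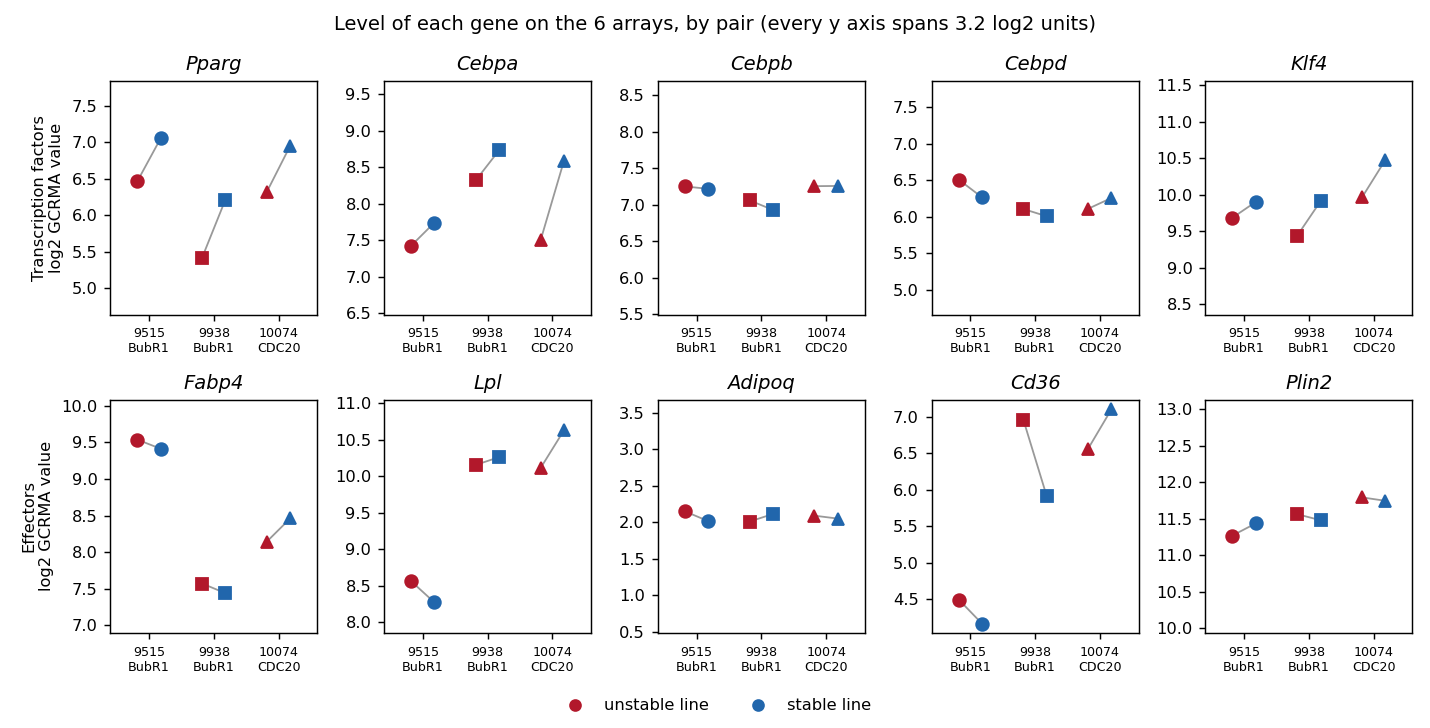
Log2 GCRMA value (y axis) of the 10 genes, a panel for each, with unstable lines in red, stable lines in blue and the lines of a pair joined; the x axis gives the pair. Pparg, Cebpa and Klf4 lie lower in the unstable line of all 3 pairs, while Adipoq stays near 2 in all 6 lines.

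Lower in all 3 pairs is a pattern that 19.3% of all tested genes showed, and higher in all 3 pairs was shown by 16.9%. Among the 9 tested members, 3 were lower and 0 higher in all pairs, and all 3 are transcription factors. Of the 8382 genes 0% passed the adjusted threshold of 0.05 without the block, and 0% with it, with 359 and 1019 genes at an unadjusted p under 0.05. With the block, Pparg, Cebpa and Klf4 each had an unadjusted p under 0.05 by limma, as did 6.92% of all genes in the same direction. The members were chosen with earlier results of these data known, so their share cannot be weighed against that of all genes. Groups that do not overlap, with every unstable line lower, were found for 6.41% of genes, and none of the 9 tested members on its brightest probe set. Within the BubR1 pairs alone 0% of genes passed without the block or with it, with 264 and 719 genes at an unadjusted p under 0.05. The difference between the BubR1 and the CDC20 effect, which rests on a single CDC20 pair, passed for no gene in either fit.

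**Figure D2:**
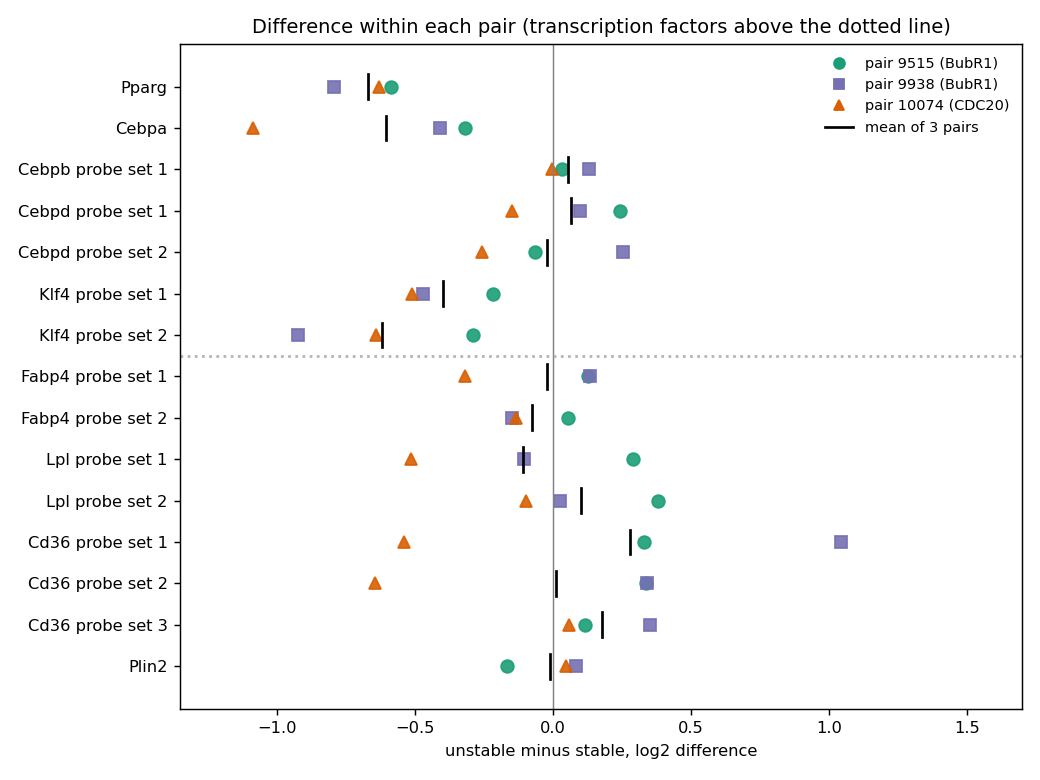
Unstable minus stable log2 difference in each of the 3 pairs (x axis, symbols) and their mean (bars) for each probe set of the members that lies above background, with transcription factors above the dotted line. Pparg lies between -0.79 and -0.59 in the 3 pairs, while the first probe set of Cd36 runs from -0.54 to 1.04.

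The effectors showed no direction that held across pairs. Their median difference was -0.02, with pair medians of 0.21, 0.11 and -0.41, and 0 of the 4 tested effectors were lower or higher in all 3 pairs. In all 4 the range of the pair means was wider than the largest difference within a pair, as it was for every factor but Cebpa. Plin2 ranged over only 0.415, less than Pparg, Cebpa and Klf4. The range of the 3 pair means had a median of 1.96 log2 units over the effectors and 0.54 over the factors, against 0.27 over all tested genes. The pairs also differ in locus and, as given below, in sex pattern and in the level of macrophage markers. Their parts in this range cannot be told apart here.

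Fabp4, the fatty acid carrier of adipocytes and macrophages (Entrez gene 11770, chromosome 3, 4 probe sets), read 9.54, 7.57 and 8.14 in unstable lines 9515, 9938 and 10074, against 9.41, 7.44 and 8.46 in stable lines. Both lines of pair 9515 were high and both of pair 9938 low, and the groups overlap. The difference was -0.02 (SE 0.67, adjusted p = 0.999 by limma), and the second probe set gave pair differences of 0.05, -0.15 and -0.14. The other two probe sets lay between 2.19 and 2.29, at background.

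Lpl, which releases fatty acids from lipoproteins (Entrez gene 16956, chromosome 8, 2 probe sets), read 8.56, 10.15 and 10.11 in unstable lines 9515, 9938 and 10074, against 8.27, 10.26 and 10.63 in stable lines. Pair 9515 was low in both of its lines, and the groups overlap. The difference was -0.11 (SE 0.73, adjusted p = 0.999 by limma). Its second, dimmer probe set read 5.07, 7.68 and 7.42 in the unstable and 4.69, 7.65 and 7.51 in the stable lines, with the same low pair.

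Cd36, a fatty acid transporter and scavenger receptor (Entrez gene 12491, chromosome 5, 3 probe sets), read 4.50, 6.95 and 6.56 in the unstable and 4.17, 5.91 and 7.10 in the stable lines, again lowest in pair 9515. Its difference was 0.28 (SE 0.93), made up of 0.33 in pair 9515, 1.04 in pair 9938 and -0.54 in pair 10074 (adjusted p = 0.999 by limma). The second probe set gave 0.34, 0.34 and -0.64, and the third 0.12, 0.35 and 0.06, so the probe sets disagree on the sign in pair 10074.

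Plin2, which coats small lipid droplets in many cell types (Entrez gene 11520, chromosome 4, 1 probe set), was high in every line, at 11.27, 11.56 and 11.79 in unstable lines and 11.44, 11.48 and 11.74 in stable lines, a difference of -0.01 (SE 0.17). Adipoq, the adipocyte hormone adiponectin (Entrez gene 11450, chromosome 16, 1 probe set), lay between 2.01 and 2.15 in all 6 lines and was not tested. Adipoq values at this level carry no order. With the pair as a block the limma SEs were 0.123 for Fabp4, 0.167 for Lpl, 0.301 for Cd36 and 0.093 for Plin2. Each was still larger than the difference of its gene, and the smallest adjusted p was 0.757, for Cd36.

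**Figure D3:**
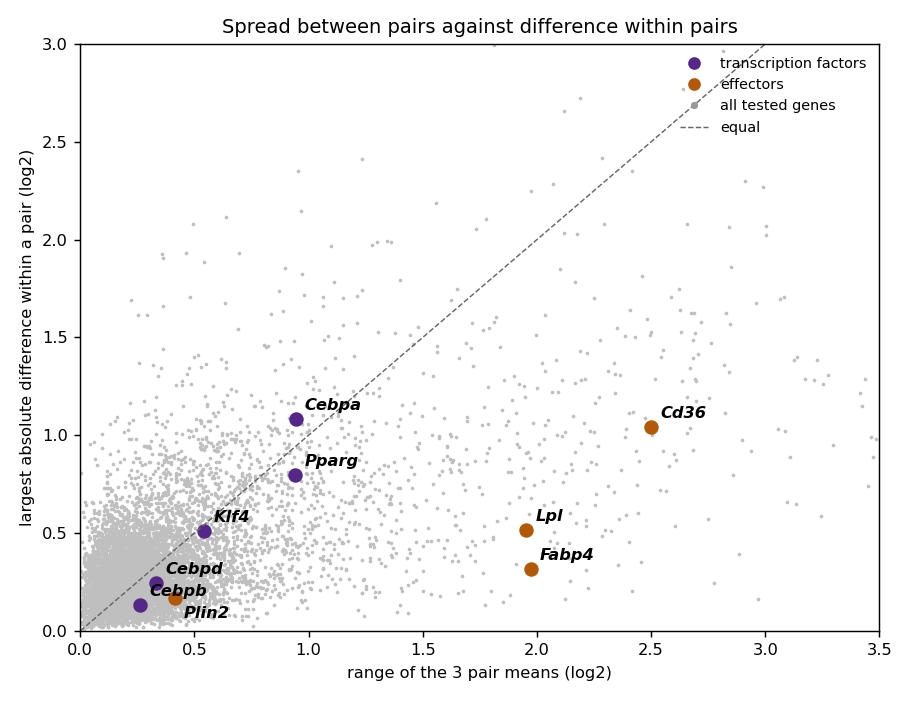
For each tested gene, the range of its 3 pair means against its largest unstable minus stable difference within a pair, both in log2 units, with members marked and 31 genes outside the axes. Fabp4, Lpl and Cd36 have pair means that range over 1.97, 1.95 and 2.50, more than any transcription factor member.

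Wider lists of the pathway, and markers of other cells, were read the same way, beside 19.3% of all tested genes lower and 16.9% higher in all pairs. Of 21 tested adipogenic factors and cofactors 2 were lower and 2 higher in all pairs, and 0 passed the adjusted test; Klf5, an early factor, was lower by 0.11, 0.67 and 0.28, while Srebf1, a lipid synthesis factor, differed by -0.13 (SE 0.14), Rxra, the dimer partner of Pparg, by 0.12 (SE 0.12) and Nr3c1, the glucocorticoid receptor, by -0.10 (SE 0.17). Klf15, Nr1h3, Ppard and Ppargc1a lay below 4 on every array. Among 23 tested inhibitors of adipogenesis 4 were lower and 1 higher in all pairs, and Dlk1, Gata2, Klf2, Ddit3 and Wnt5a had mean differences between -0.05 and 0.13. The pairs differed in sign for Gata2, at 0.115, -0.658 and 0.566 (SE of the mean difference 0.796), and for Dlk1, at 0.321, -0.484 and 0.256 (SE 0.339). The smallest unadjusted p of each of these lists belonged to Zfp467, at 0.35 (SE 0.23), and to Trib3, at -0.30 (SE 0.18). Of 24 tested lipid storage and metabolism genes 4 were lower and 4 higher in all pairs, and again 0 passed. At an unadjusted p under 0.05 without the block, met by 359 of all 8382 genes, there was 1 gene in this list and 0 among the factors and cofactors. The 2 genes with the smallest unadjusted p in that list, Lpin1 and Angptl4, were both higher in all pairs. Lpin1, a phosphatidate phosphatase, read 7.89, 7.73 and 8.17 in unstable lines and 7.36, 6.92 and 7.67 in stable lines, a difference of 0.61 (SE 0.22) with an adjusted p of 0.999 by limma, and 0.262 with the block. Angptl4, an inhibitor of Lpl and a target of PPAR receptors, was higher by 0.27, 0.89 and 0.50 (adjusted p = 0.999 by limma). Fasn was lower by 0.09, 0.41 and 0.35, Scd1 differed by 0.02 (SE 0.09), Fabp5 by 0.02 (SE 0.14), and Cidec, Lipe and Slc2a4 lay below 4 throughout.

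Most listed fibroblast markers lay well above background in these lines, and the listed mature adipocyte markers did not. The fibroblast and progenitor list averaged 10.25 to 10.40 in unstable and 10.11 to 10.36 in stable lines, with Pdgfra and Pdgfrb both above 10 in each. Not every gene of that list was high or even between lines. Pi16 lay between 2.57 and 3.06, and Dpp4 reached 4 on only 5 arrays. Cd34 ran from 4.39 to 6.68, and was higher in the unstable line by 0.11, 0.12 and 1.99 in pairs 9515, 9938 and 10074. All 9 mature adipocyte markers on the array lay below 4 in every line, between 1.83 and 3.09. That list does not hold Fabp4 and Lpl, whose brightest probe sets lay well above background. A low value does not show that a gene is absent, since Fabp4 also has probe sets at background. The 13 endothelial markers averaged 3.74 to 3.84 in unstable and 3.73 to 3.83 in stable lines, with Pecam1 and Cdh5 below 3 throughout and 8 of the 13 below 4 throughout, while Flt1 lay above 9 in every line. Most macrophage markers lay above background, but Itgam lay below 4 on every array and Spi1 reached 4 on only 3. In pair 9515 Aif1 and Fcgr1 lay between 3.83 and 4.33. Macrophages also express Lpl, Cd36, Fabp4, Plin2 and Pparg. Their list of 25 genes averaged 6.55, 9.42 and 8.12 in unstable lines 9515, 9938 and 10074, against 6.71, 9.24 and 9.18 in stable lines, so pair 9515 was the lowest and pair 9938 the highest by pair mean. Of the 5 members just named, Lpl, Cd36 and Plin2 were also lowest in pair 9515, with pair means of 8.42, 4.33 and 11.35. Unlike the macrophage list, they were highest in pair 10074, at 10.37, 6.83 and 11.77, although the second Lpl probe set was highest in pair 9938. Fabp4 and Pparg ran opposite to the macrophage list, highest in pair 9515, with pair means of 9.48 and 6.76, and lowest in pair 9938, with 7.50 and 5.82. Cebpa had the order of the list, with pair means of 7.58, 8.53 and 8.04 in pairs 9515, 9938 and 10074. The 5 genes named above are examples, and whether macrophages supply part of the Cebpa signal was not tested. In pair 9938, where the Pparg difference was -0.79, the macrophage average was 0.18 higher in the unstable line, while Cebpa had its widest gap in pair 10074, where that average was 1.07 lower. The macrophage receptor Csf1r differed by -0.58, 0.13 and -1.20 in the 3 pairs, and Cd68 by -0.07, -0.05 and -1.19. The 19 tested mitosis genes all had lower means in unstable lines, with pair medians of -0.21, -0.67 and -0.82 and 17 of them lower in all pairs. The part of these markers in the results was not tested, and fewer cells of a type and less RNA per cell cannot be told apart in such arrays.

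**Figure D4:**
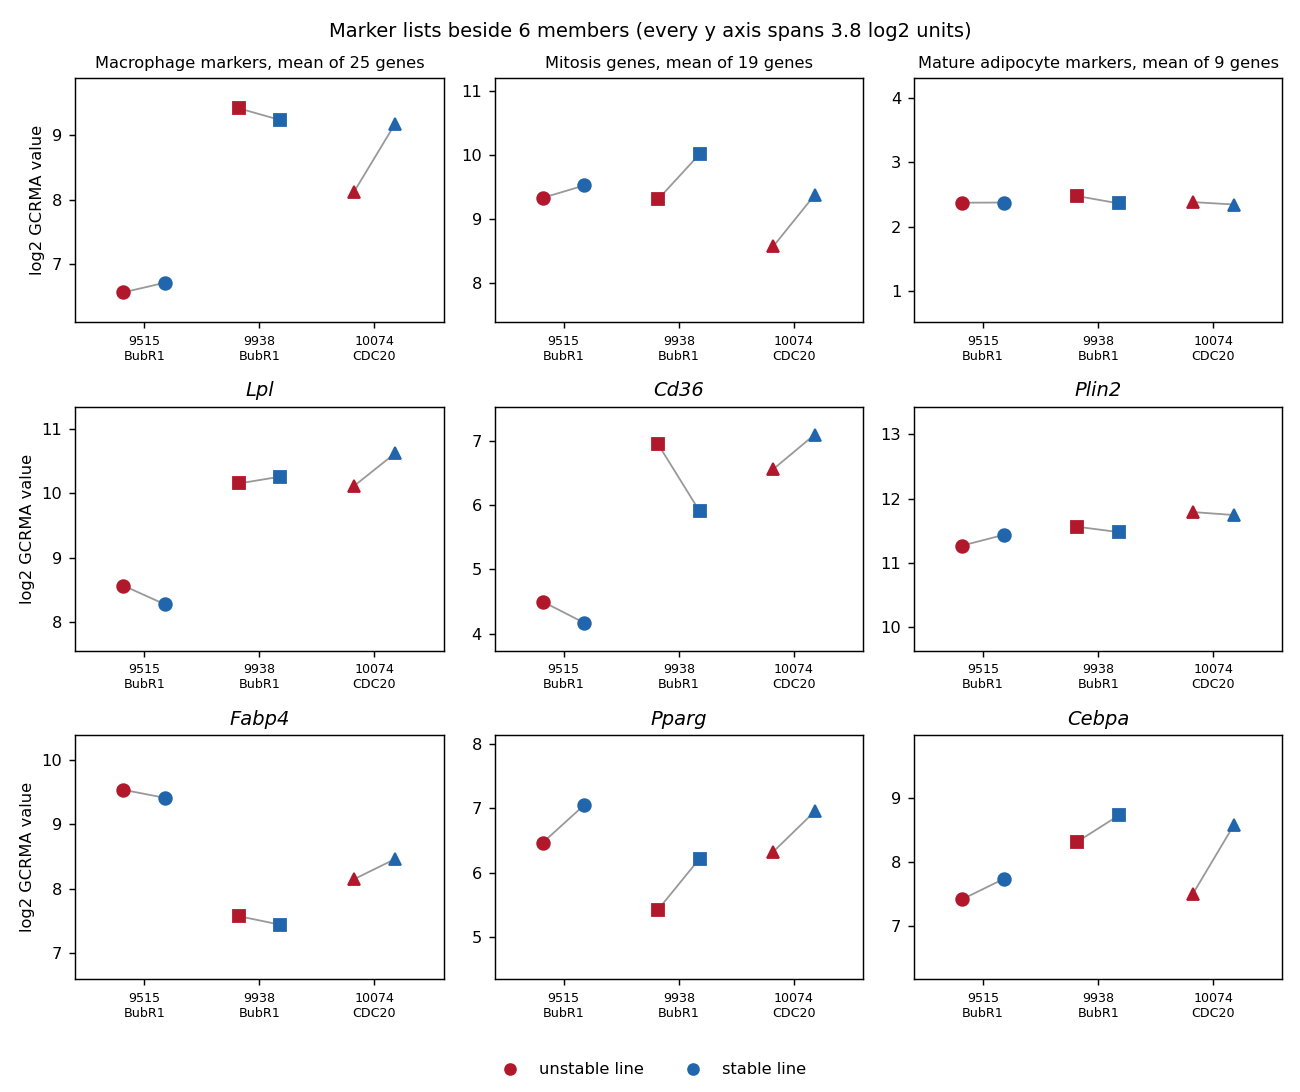
Mean log2 GCRMA value of the macrophage, mitosis and mature adipocyte lists, and the values of Lpl, Cd36, Plin2, Fabp4, Pparg and Cebpa, in the unstable (red) and stable (blue) line of each pair on the x axis. The macrophage list runs from 6.55 to 9.42 in unstable lines and from 6.71 to 9.24 in stable lines, and is lowest in pair 9515, where Lpl, Cd36 and Plin2 have their lowest pair mean and Fabp4 and Pparg their highest. Lpl, Cd36 and Plin2 have their highest pair mean in pair 10074, and the macrophage list in pair 9938.

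The labels were checked on the targeted genes. Bub1b, which encodes BubR1, read 6.14 and 6.43 in the BubR1 H/H lines and 7.81 and 8.51 in their BubR1 +/+ partners, and in pair 10074 it was 7.00 in the CDC20 AAA/AAA line and 7.61 in the CDC20 +/+ line. Cdc20 was lower by 0.10, 0.81 and 0.80 in the unstable lines, and an allele change need not alter its RNA. Xist was high and Eif2s3y at background in both lines of pair 9938, with the opposite in the other 4 lines, so that pair carries a female pattern and sex does not differ within any pair.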

How the data were processed

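RNA from 6 lines was amplified, labelled and hybridised to Affymetrix mouse arrays, 1 per line. The authors' deposited values are log2 signals, made with GCRMA 2.28.0 and R 2.15.3 per the submitters' processing notes, and were used as they stand. The number of arrays limits the precision; array medians ran from 6.16 to 6.20. Of 22626 probe sets 20380 had 1 symbol in the platform annotation, 691 had several and 1555 were not listed. A gene was read from its probe set with the highest mean, and the 8382 genes reaching log2 of 4 on 3 or more arrays were tested. R 4.3.3 with limma 3.58.1 was used (linear model with empirical Bayes, 2-sided), and calls needed a Benjamini-Hochberg adjusted p below 0.05; the procedure was tested on simulated data. A model of 4 groups gave the separate BubR1 and CDC20 effects. Pair numbers come from the titles: after group means were removed, same-numbered lines correlated at 0.812, 0.681 and 0.602, against -0.673 to 0.153 for other combinations, so the numbers were taken to pair the lines. Removing the means of only 3 lines a group pushes the other combinations down where same-numbered lines correlate. Part of that gap is therefore built in. Members and lists were chosen with earlier results of these data known. Genes beyond the members were named by role, or as the 2 of a list with the smallest unadjusted p. The TATA box was added to the motifs after the windows had been seen. The alternatives were the replicate block, other filters, all or averaged probe sets, quantile normalization, a robust prior, and leaving out each line or pair. Plin1 and Cfd were not analysed here.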

Additional observations from a re-analysis of the deposited data

Results flagged for a closer look

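For 4 members, on the brightest probe set of each, the differences of the 2 BubR1 pairs had one sign and that of the CDC20 pair the other. The difference of the 2 effects (BubR1 minus CDC20) was 0.085 for Cebpb, with 0.082 in the BubR1 pairs and -0.003, next to no difference, in the CDC20 pair. For Cebpd it was 0.319, from 0.171 in the BubR1 pairs and -0.148 in the CDC20 pair. For Fabp4 it was 0.446, from 0.129 in the BubR1 pairs and -0.317 in the CDC20 pair. For Cd36 it was 1.226, from 0.686 in the BubR1 pairs and -0.539 in the CDC20 pair. Other probe sets did not all share this split. The second of Fabp4 gave 0.054, -0.150 and -0.135 in pairs 9515, 9938 and 10074 and the second of Cebpd -0.066, 0.255 and -0.256, so the BubR1 pairs differ in sign, and the third of Cd36 was positive in all 3 pairs, while the second of Cd36 kept the split, with 0.337, 0.342 and -0.645. The interaction test in limma, with a single CDC20 pair, had SEs of 0.273, 0.346, 1.794 and 1.936 for Cebpb, Cebpd, Fabp4 and Cd36 without the block. With the block the SEs were 0.202, 0.207, 0.199 and 0.353, and none of these differences passed in either fit.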

How the results depend on the processing

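Every alternative left 0 genes past the adjusted threshold. Pparg, Cebpa and Klf4 stayed lower in unstable lines under all 16 alternatives each, from -0.93 to -0.35 for Pparg, -0.91 to -0.36 for Cebpa and -0.53 to -0.21 for Klf4. The replicate block changed no call, and left the Pparg difference at -0.67. The factor median ran from -0.50 to -0.21 when single lines were left out, the value nearest 0 without stable line 10074. The near-zero differences of other members turned sign with single lines left out, over -0.049 to 0.118 for Cebpb, -0.069 to 0.133 for Cebpd, -0.58 to 0.47 for Fabp4, -0.83 to 0.41 for Lpl, -0.50 to 1.03 for Cd36 and -0.14 to 0.12 for Plin2. Leaving out whole pairs gave -0.025 for Cebpd (without 9515), 0.13 for Fabp4 and 0.092 for Lpl (without 10074), -0.10 for Cd36 (without 9938) and 0.065 for Plin2 (without 9515), and quantile normalization gave 0.004 for Plin2; fewer lines entered the fits that leave lines out, and the cause of the Plin2 change was not tested. With 3 lines a group and a single CDC20 pair, differences of the size seen in the effectors could not be resolved, without the pair block or with it. Values near background carry no order.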
